A study of Homo sapiens with 8 samples.

Results

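The transcripts of 10 hypoxia-inducible genes (HIF1A, EGLN3, VEGFA, ADM, CA9, P4HA1, NDRG1, BNIP3, BNIP3L and ANKRD37) were examined in colorectal cancer cells that overexpress TRMT6/61A. These genes form a list of known HIF-related genes and were taken from a count table of 58302 Ensembl identifiers by gene symbol. Of the 10 genes, 9 passed the filter on low counts and were tested among 14133 genes, and CA9 had 0 reads in every library. ADM, NDRG1, BNIP3L and P4HA1 were lower in the overexpressing cells than in vector cells, by 17.1% for P4HA1 to 46.6% for ADM, and none of the 10 was called higher. VEGFA differed by less than the spread between libraries, and HIF1A and EGLN3 had the only values above 0 on the log2 scale, neither of which passed the test.

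DLD1 is an established human colorectal cancer cell line. TRMT6 and TRMT61A are the subunits of the enzyme that places a methyl group on adenosine to form m1A in tRNA. Cells transduced with a lentiviral pCDH vector carrying wild-type TRMT6 and TRMT61A (OE-WT) were compared with cells that received the empty vector (CTRL), so both groups share the transduction and the vector backbone. Each group has 2 libraries, replicates 1 and 2, each sequenced on 2 lanes. Per the labels, the RNA came from the cleared lysate of cells washed with cycloheximide. The study asked how the writer of m1A changes tumour cells, and the labels name no low-oxygen treatment for either group. Whether each stable line is a pool of cells or 1 clone is not given in the sources used here. The series design describes duplicate cultures for each group. The p-values measure the spread between such duplicate libraries only, and each gene's spread is estimated partly from that shared across genes.

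In cells with enough oxygen, prolyl hydroxylases of the EGLN family modify the alpha subunits of the hypoxia-inducible factors (HIF), and the VHL ubiquitin ligase then marks them for destruction. When oxygen is short, the alpha subunit accumulates, pairs with ARNT and binds short hypoxia-response elements near its target genes. The targets raise glucose uptake and glycolysis, blood vessel growth, acid export, collagen processing and the removal of mitochondria. HIF-alpha is governed largely at the protein level, which RNA sequencing does not measure.

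The libraries held 10460284 and 10327498 counted reads in OE-WT and 12379671 and 12063433 in CTRL. TRMT6 was higher in OE-WT by 1.86 ± 0.08 on the log2 scale (SE) and TRMT61A by 1.21 ± 0.07, in both libraries, which matches the labels. The epithelial keratins KRT8 and KRT18 averaged 5048 and 3142 CPM (reads scaled to a common library size) in CTRL. The adhesion genes CDH1 and EPCAM averaged 1398 and 513 CPM. The markers VIL1, CEACAM5 and LGALS4 were low, at 3.06, 2.02 and 0.994 CPM in CTRL. Of the intestinal transcription factors, CDX2 was at 98.4 CPM in CTRL and 111.1 CPM in OE-WT, and CDX1 had 1 read in 1 library. Of 11 epithelial markers tested, 2 were called higher (KRT8 and KRT18) and 5 lower (CDH1, CLDN3, CLDN4, KRT19 and CEACAM5). These are shares of 18.2% and 45.5%, against 9.44% and 11.6% over all genes tested. CEACAM5 had 9 and 7 reads in OE-WT and 27 and 24 in CTRL. With DESeq2, KRT19 and CEACAM5 were not called. The summed level of the markers, carried mostly by KRT8 and KRT18, was 12680 and 13080 CPM in OE-WT against 12090 and 11780 CPM in CTRL. CDH1, CLDN3 and CLDN4 were called lower in 11 of 11 alternatives, while 0 markers were called higher with library size alone or without OE-WT replicate 2. Markers of fibroblasts, leukocytes and endothelium summed to 4.23 and 3.44 CPM in OE-WT and 5.13 and 3.90 CPM in CTRL. Of these 13 markers, COL1A2, COL3A1, DCN, CD3E, MS4A1 and CDH5 were at 0 in every library and VWF, an endothelial gene with 5 and 6 reads against 30 and 14, was the only one called, as lower; it was not called without CTRL replicate 1 (adjusted p = 0.343) or without OE-WT replicate 1. The part of these markers in the results was not tested. In bulk RNA, fewer cells expressing a gene and less RNA per cell cannot be told apart.

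Stretches of 5 promoters in which a hypoxia-response core was found are shown because the genes they belong to gave all 3 outcomes: called lower, not called, and at 0. The core was searched as ACGTG or GCGTG on both strands in the RefSeq promoters (GRCh38.p14), from 250 bases before to 50 bases after each start site. The sequence CACGTG holds a match on each strand, and these overlapping matches were counted separately. Among all 35116 promoters in the table, 48.4% held a match and 4.4% held 4 or more. Of the 10 genes, 7 had a promoter in the table, with 2 for HIF1A, and 6 of these 8 promoters held a match. VEGFA, NDRG1 and BNIP3L were the other three. Matches are in capitals on the gene's own strand, 5′ to 3′, so a core on the opposite strand reads CACGT or CACGC, and every stretch ends at or before the start site.
ADM, chr11:10304957-10304991 (+): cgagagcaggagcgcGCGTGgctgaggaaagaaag
P4HA1, chr10:73096933-73096967 (-): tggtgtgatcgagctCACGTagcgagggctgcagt
ANKRD37, chr4:185396664-185396717 (+): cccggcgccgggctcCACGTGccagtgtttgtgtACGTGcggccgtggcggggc
BNIP3, chr10:131982008-131982081 (-): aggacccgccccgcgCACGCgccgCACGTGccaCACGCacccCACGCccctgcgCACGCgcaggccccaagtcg
CA9, chr9:35673895-35673927 (+): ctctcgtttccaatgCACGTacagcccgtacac

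BNIP3 had 6 matches between 143 and 104 bases before its start, the most of the 8 promoters. ANKRD37 had 3, the first 162 bases before the start. ADM, P4HA1 and CA9 had 1 each, at 101, 86 and 18 bases before the start. No match was found in the EGLN3 window. A match describes the letters of the sequence and is not a measured binding site.

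**Figure D1:**
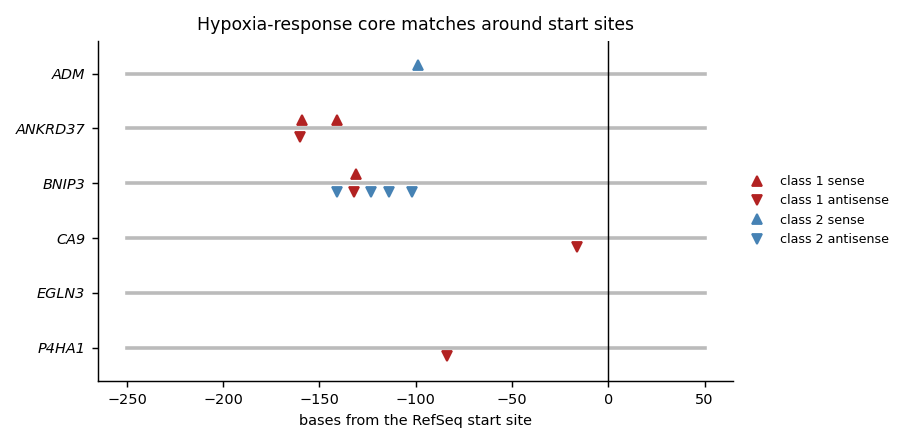
Matches to the hypoxia-response core (triangles) by distance in bases from the RefSeq start site (vertical line), for 6 genes. Red marks the ACGTG form (class 1) and blue the GCGTG form (class 2), triangles pointing up are on the gene's strand and those pointing down on the opposite strand; BNIP3 holds 6 matches and EGLN3 none.

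Levels of different genes were set side by side as CPM per kilobase of the canonical transcript. In CTRL cells ADM was the most abundant of the 10, at 55.2 ± 1.21 CPM per kb (SD, n = 2), above 91.4% of 14051 tested genes with a transcript length. VEGFA followed at 26.5 ± 1.48 and P4HA1 at 23.5 ± 1.43 CPM per kb. NDRG1 at 16.8 ± 2.92 and ANKRD37 at 16.6 ± 3.72 CPM per kb did not differ beyond their spread, and neither did ANKRD37 and BNIP3L, the latter at 13.0 ± 0.236 CPM per kb. HIF1A (3.50 ± 0.164), EGLN3 (2.36 ± 0.156) and BNIP3 (1.26 ± 0.0751 CPM per kb) lay below the median of all tested genes, 4.70 CPM per kb. Transcripts of well-known HIF targets were therefore present in vector cells at widely different levels, from high for ADM to none read for CA9.

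**Figure D2:**
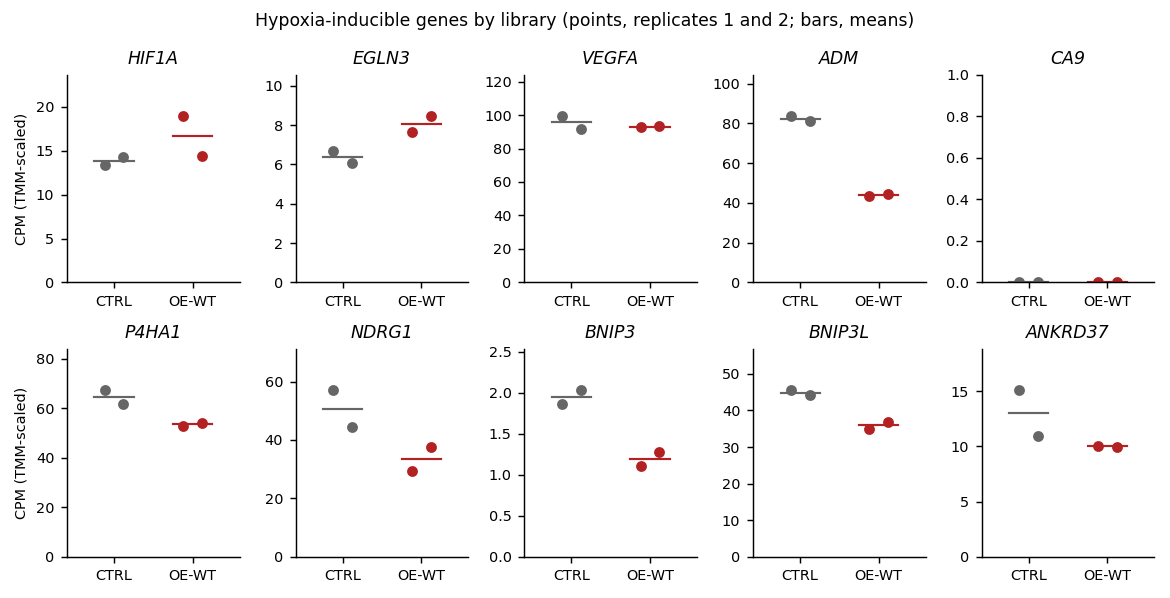
Expression of the 10 genes in each library, in CPM on TMM-scaled library sizes, with CTRL in grey and OE-WT in red; points are replicates 1 (left) and 2 (right), and bars are group means. Each vertical axis starts at 0 and has its own range; the OE-WT points lie below the CTRL points for ADM, P4HA1, NDRG1, BNIP3, BNIP3L and ANKRD37, above them for HIF1A and EGLN3, and among them for VEGFA, while CA9 is at 0.

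Across the 10 genes, 4 were called lower in OE-WT at an adjusted p below 0.05 by edgeR's quasi-likelihood test, which is 44.4% of the 9 tested. The background share called lower over all 14133 genes was 11.6%. The 10 genes were chosen with earlier results of these data known, so the shares were not compared by a test. No gene of the 10 was called higher, against a background of 9.44%; at an unadjusted p below 0.05 the count was also 0 higher, with 5 lower, and DESeq2 called 0 higher and 1 lower. Their median log2 fold change was -0.32, with 7 values below 0 and 2 above, beside a median of 0.01 over all genes, of which 48.9% lay below 0. In either direction 21.1% of all genes were called. With the study's own thresholds (p below 0.05 before adjustment and a change of more than 1 log2 unit), 3.15% of all genes and 0 of the 10 passed. The summed level of the 10 genes was 291.3 and 300.6 CPM in OE-WT and 389.7 and 356.8 CPM in CTRL. When only library size was used for scaling, calls over all genes shifted from 44.8% to 23.0% higher, and 5 of the 10 genes were called lower, ANKRD37 being added. Without OE-WT replicate 1 or without CTRL replicate 1, 2 were called lower, ADM and NDRG1.

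**Figure D3:**
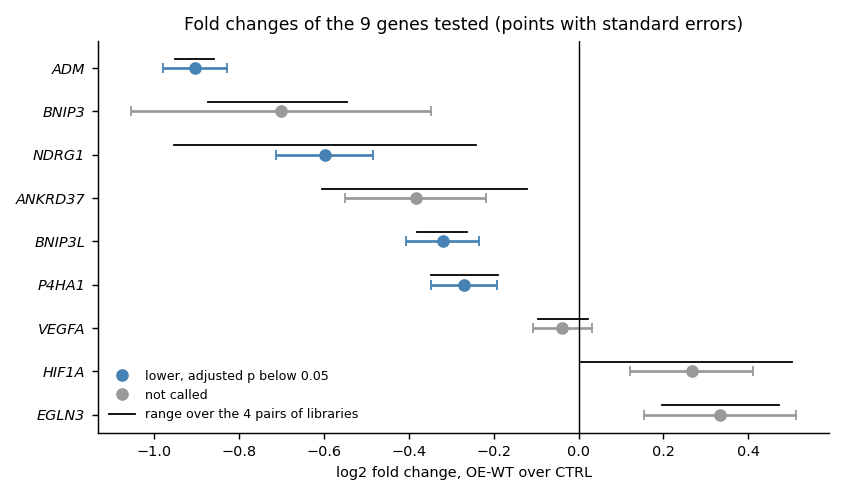
Log2 fold change of OE-WT over CTRL for the 9 genes tested (points) with the standard error of the fit (coloured bars), and the range over the 4 pairs of an OE-WT and a CTRL library (black lines). Blue points are ADM, NDRG1, BNIP3L and P4HA1, the genes called lower; grey points are not called, and only HIF1A and EGLN3 lie to the right of 0.

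HIF1A encodes the oxygen-regulated alpha subunit of HIF-1. Its level was 18.9 and 14.35 CPM in the OE-WT libraries and 13.4 and 14.29 CPM in the CTRL libraries. OE-WT replicate 1 stood above the other 3 libraries, which lay close together, and the groups were separated only by the small gap between OE-WT replicate 2 and CTRL replicate 2. Its log2 fold change of 0.27 ± 0.14 (SE) did not pass the test (adjusted p = 0.202, edgeR's quasi-likelihood test). Without OE-WT replicate 1 it was 0.05 (adjusted p = 0.886) and without OE-WT replicate 2 it was 0.44 (adjusted p = 0.0454), so its size depended on which OE-WT library was used. HIF1A shares 5.80% of its exon bases with HIF1A-AS3 and 2.58% with HIF1A-AS1 on the opposite strand, both of which had at most 11 reads in a library.

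EGLN3 encodes a prolyl hydroxylase that modifies HIF-alpha and is itself a HIF target. It was read at 7.66 and 8.45 CPM in OE-WT and at 6.68 and 6.09 CPM in CTRL. Both OE-WT libraries lay above both CTRL libraries. The log2 fold change of 0.33 ± 0.18 (SE) did not pass the test (adjusted p = 0.197, edgeR's quasi-likelihood test) at 75 to 86 reads per library, nor under any of 11 alternative settings. The intervals of the EGLN3 and HIF1A differences include both small decreases and increases larger than those fitted if 2 standard errors are taken on each side.

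The rest of the oxygen-sensing machinery gave few calls. Of 18 tested genes that encode HIF subunits, hydroxylases, VHL ligase parts and coactivators, 0 were called higher and 1 lower. The share called lower was 5.56%, against 11.6% over all genes tested, and the median log2 fold change was 0.03. Before adjustment, 1 gene higher (CUL2, a scaffold of the VHL ligase) and 2 lower had a p below 0.05 by edgeR's quasi-likelihood test, and DESeq2 called 0 higher and 0 lower. The one called gene was CITED2, a transcriptional regulator that competes with HIF-alpha for the coactivators CBP and p300, with a log2 fold change of -0.19 ± 0.07 (SE, adjusted p = 0.0416). It passed in 4 of 11 alternatives. EPAS1, the HIF-2 alpha subunit, was at 26.7 CPM in CTRL and 21.9 CPM in OE-WT and did not pass (log2 fold change -0.28, adjusted p = 0.0697). ARNT, VHL, EGLN1 and HIF1AN, which encode the partner subunit, the ligase's recognition part and other oxygen-sensing hydroxylases, had log2 fold changes of 0.17, 0.12, 0.04 and 0.005 with adjusted p-values from 0.331 to 0.971. HIF3A had 1 read in 1 library and was not tested.

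VEGFA encodes the secreted growth factor that drives blood vessel growth. Its level was 93.0 and 93.3 CPM in OE-WT and 99.3 and 91.8 CPM in CTRL. The OE-WT libraries lay between the CTRL libraries. The log2 fold change was -0.04 ± 0.07 (SE, adjusted p = 0.750), and at 923 to 1278 reads per library its standard error was the smallest of the 9 genes tested. Among its relatives and receptors, NRP2, a coreceptor, was called higher (log2 fold change 0.41, adjusted p = 0.0256) and NRP1, the other coreceptor, lower (-0.21, adjusted p = 0.0452). These calls were kept in 6 and 5 of 11 alternatives. The receptor genes KDR and FLT4 were at 0 in every library, and FLT1 had 0 and 5 reads in OE-WT and 22 and 7 in CTRL and was not tested.

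ADM encodes the precursor of adrenomedullin, a secreted peptide that widens blood vessels. Its level was 43.3 and 44.7 CPM in OE-WT and 83.6 and 81.1 CPM in CTRL. The groups were far apart relative to the spread within each of them, with means of 44.0 ± 0.988 and 82.4 ± 1.80 CPM (SD, n = 2). The log2 fold change was -0.90 ± 0.08 (SE, adjusted p = 4.1e-08, edgeR's quasi-likelihood test), lower than in all but 2.98% of the genes tested, and ADM was called lower in 11 of 11 alternatives. For a single gene, the smallest two-sided p of an exact permutation test in this design is 0.333. The gene lies at chr11:10305073-10307397 on the plus strand of GRCh38.

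The number of ADM reads per VEGFA read, which does not depend on library scaling, was 0.466 and 0.480 in OE-WT against 0.842 and 0.883 in CTRL. The ratio shows that ADM differed between the groups relative to VEGFA, and it does not compare their abundance, because the transcripts differ in length. ADM2, a related peptide gene, was at 2.99 CPM in OE-WT and 4.15 CPM in CTRL and did not pass (adjusted p = 0.194). The adrenomedullin receptor gene CALCRL and the receptor partners RAMP2 and RAMP3 had 0 reads in every library.

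CA9 encodes a carbonic anhydrase at the cell surface that handles acid under low oxygen. It had 0 reads in all 4 libraries, which allows up to 3 reads in each, or 0.302 and 0.295 CPM in OE-WT and 0.233 and 0.244 CPM in CTRL; this limit covers counting error only. No fold change was computed. Of its exon bases, 35.7% overlap ARHGEF39 on the opposite strand, which was read at 23.9 and 23.5 CPM in OE-WT and CTRL. CA1, CA4, CA5A and CA6 were likewise at 0 in every library. The 4 carbonic anhydrases that could be tested, CA2, CA11, CA12 and CA13, gave 0 calls by edgeR's quasi-likelihood test, 0 at an unadjusted p below 0.05, and 0 in all 11 alternatives, DESeq2 included. CA12, another hypoxia-responsive member at the cell surface, was at 2.14 CPM in OE-WT and 2.69 CPM in CTRL (adjusted p = 0.460).

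P4HA1 encodes a catalytic subunit of the prolyl 4-hydroxylase that modifies collagen in the endoplasmic reticulum. Its level was 52.9 and 54.1 CPM in OE-WT and 67.2 and 61.7 CPM in CTRL. Both OE-WT libraries lay below both CTRL libraries, with CTRL replicate 1 the farthest from the rest. P4HA1 had a log2 fold change of -0.27 ± 0.08 (SE, adjusted p = 0.0158), and the adjusted p was 0.071 without OE-WT replicate 1, 0.17 without CTRL replicate 1 and 0.128 with DESeq2. The gene lies at chr10:73007217-73096974 on the minus strand.

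The collagen-modifying enzymes gave the largest share of lower calls among the wider lists of more than 4 tested genes related to the oxygen response. Of 11 enzymes tested, P4HA1 included, 6 were called lower and 0 higher. Without P4HA1, 5 of 10 were called lower. For all 11 the share called lower was 54.5%, against 11.6% over all genes tested, and the median log2 fold change was -0.27. By edgeR's unadjusted p below 0.05 the counts were 7 lower and 0 higher, and DESeq2 called 4 lower and 0 higher. Without OE-WT replicate 1, 3 were called lower (P3H1, P4HA2 and PLOD1). P3H1, a prolyl 3-hydroxylase, fell most among those called, from 82.2 to 54.4 CPM (log2 fold change -0.59 ± 0.08, adjusted p = 8.3e-06). PLOD1, a lysyl hydroxylase, was at 552.0 CPM in CTRL and 401.0 CPM in OE-WT (log2 fold change -0.46), and P4HA2, the sister catalytic subunit, at 249.1 and 186.2 CPM (-0.42). PLOD3 had a log2 fold change of -0.29 and P4HB, the shared beta subunit that is also a disulfide isomerase, -0.20, and P4HB passed in 2 of 11 alternatives. PLOD3 passed in 9 and lost its call without OE-WT replicate 1 and with the GC trend removed, its log2 fold change reaching -0.14 and its adjusted p 0.142. P3H1, PLOD1 and P4HA2 passed in 11 of 11. P4HA3 and PLOD2 did not pass, at log2 fold changes of 0.34 and -0.07.

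NDRG1 encodes a stress-responsive cytoplasmic protein that is one of the most used transcript markers of hypoxia. Its level was 29.4 and 37.6 CPM in OE-WT and 57.0 and 44.5 CPM in CTRL. Both OE-WT libraries were lower, with means of 33.5 ± 5.82 and 50.7 ± 8.83 CPM (SD, n = 2). Among the called genes of the 10, the replicates of each group differed most for NDRG1. NDRG1 had a log2 fold change of -0.60 ± 0.11 (SE, adjusted p = 0.00072), and single pairs of libraries ranged from -0.95 to -0.24. It was called lower in 10 of 11 alternatives and not with DESeq2, whose adjusted p was 0.113. The relatives NDRG2, NDRG3 and NDRG4 were tested and none was called, with log2 fold changes of 0.08, 0.18 and -0.70.

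BNIP3 and BNIP3L encode proteins of the outer mitochondrial membrane that recruit the autophagy machinery to mitochondria. BNIP3L was read at 35.0 and 37.0 CPM in OE-WT and at 45.5 and 44.3 CPM in CTRL. The libraries of each group lay close together and the groups did not overlap. BNIP3L had a log2 fold change of -0.32 ± 0.09 (SE, adjusted p = 0.0097), and the adjusted p was 0.0756 without OE-WT replicate 1, 0.0511 without CTRL replicate 1 and 0.100 with DESeq2. PNMA2 on the opposite strand shares 7.95% of its exon bases and was at 1.19 and 1.47 CPM.

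BNIP3 had the fewest reads of the 9 genes tested, with 11 and 13 reads in OE-WT and 24 and 25 in CTRL. This corresponds to 1.11 and 1.28 CPM against 1.87 and 2.03 CPM. Both OE-WT libraries lay below both CTRL libraries. The fitted log2 fold change of -0.70 was larger in size than that of BNIP3L, but its standard error was 0.35 and it did not pass the test (adjusted p = 0.170).

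Of 16 mitophagy receptors and adaptors tested, these 2 genes included, 0 were called higher and 2 lower, BNIP3L being 1 of the 2. The share called lower was 12.5%, near the 11.6% over all genes tested, and the median log2 fold change was -0.08. By edgeR's unadjusted p below 0.05, 1 was higher (BECN1, an autophagy initiator, at a log2 fold change of 0.19) and 3 lower, and DESeq2 called 0 higher and 1 lower, as did the fits without OE-WT replicate 1 or without CTRL replicate 1. The other gene called was ULK1, the kinase that starts autophagy, which fell from 32.6 to 19.0 CPM (log2 fold change -0.78 ± 0.10, adjusted p = 1.6e-05) and passed in 11 of 11 alternatives. PINK1, SQSTM1 and FUNDC1 had log2 fold changes of -0.17, -0.12 and 0.05 and did not pass.

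ANKRD37 encodes an ankyrin-repeat protein and is a direct HIF target. Its level was 10.1 and 9.93 CPM in OE-WT and 15.1 and 11.0 CPM in CTRL. The OE-WT libraries and CTRL replicate 2 lay close together, and CTRL replicate 1 stood above them. Its log2 fold change was -0.38 ± 0.17 (SE), with an unadjusted p of 0.031 and an adjusted p of 0.108 by edgeR's quasi-likelihood test. It was called lower without CTRL replicate 2 (log2 fold change -0.59, adjusted p = 0.013) and with library size alone (-0.48, adjusted p = 0.0262), and had a log2 fold change of -0.13 without CTRL replicate 1. Of its exon bases, 40.4% overlap UFSP2 on the opposite strand, which was at 12.1 and 13.8 CPM (log2 fold change -0.19, adjusted p = 0.375). The library kit preserves strand, but the strand setting of the counting is not given in the sources used here, so part of the ANKRD37 reads could belong to UFSP2.

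**Figure D4:**
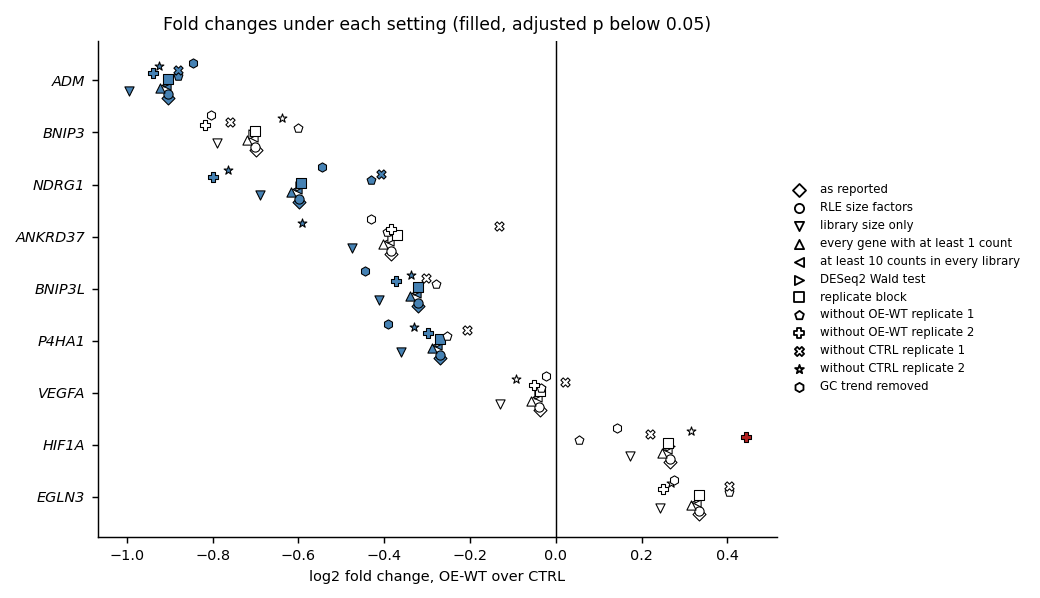
Log2 fold change of OE-WT over CTRL for the 9 genes tested under the reported settings (diamonds) and 11 alternatives (other symbols), with filled symbols where the adjusted p was below 0.05 (blue lower, red higher). ADM is filled under every setting, NDRG1 under all but DESeq2, and P4HA1 and BNIP3L under 8 of 11 alternatives; the single red symbol is HIF1A without OE-WT replicate 2.

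Well-known HIF targets outside the 10 genes were divided into enzymes and transporters of glucose metabolism and all other targets. Of 25 genes of glucose metabolism tested, 5 were called higher and 1 lower, with a median log2 fold change of 0.05. The shares were 20.0% and 4.0%, against 9.44% and 11.6% over all genes tested. PKM, the pyruvate kinase of glycolysis, had the largest increase (log2 fold change 0.37 ± 0.07, adjusted p = 0.00045), from 1860 to 2413 CPM. It was followed by GPI (0.28), HK2 (0.26), ENO1 (0.22) and TPI1 (0.19), enzymes of the same pathway. SLC16A3, the lactate exporter, was called lower, from 383.5 to 259.6 CPM (log2 fold change -0.56, adjusted p = 3.8e-06). PKM and SLC16A3 passed in 11 of 11 alternatives, GPI in 10, HK2 in 6, ENO1 in 5 and TPI1 in 3, and with library size alone the count was 1 higher and 3 lower. Without OE-WT replicate 1 or without CTRL replicate 1, 2 were called higher, and without either of the other libraries 3. Glucose transporter SLC2A1 was at 2139 CPM in OE-WT and 2211 CPM in CTRL (adjusted p = 0.691) and LDHA, which makes lactate, at 754.9 and 673.3 CPM (adjusted p = 0.0723); both genes are named after their values were seen.

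Of 39 other HIF targets tested, 1 was called higher and 12 lower, with a median log2 fold change of -0.24. The shares were 2.56% and 30.8%, against 9.44% and 11.6% over all genes tested. DESeq2 called 1 higher and 8 lower, and DDIT4, INSIG2, KDM4B and ZNF395 were no longer called. TFRC, the transferrin receptor that takes up iron, was the gene called higher (log2 fold change 0.37, adjusted p = 0.0026). Among the 5 largest decreases of called genes were those of STC2, a secreted glycoprotein (-1.36 ± 0.29), EDN1, the vessel-constricting peptide endothelin-1 (-1.12 ± 0.22), SLC6A8, the creatine transporter (-0.88 ± 0.17), and ANGPTL4, a secreted inhibitor of lipoprotein lipase (-0.84 ± 0.14). STC2 was read 14 and 17 times in OE-WT and 56 and 44 times in CTRL. EDN1 was read 31 and 30 times in OE-WT and 82 and 84 times in CTRL. These 4 genes and TFRC passed in 11 of 11 alternatives.

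Taking the lists side by side, lower calls outnumbered higher calls over all genes tested (1642 against 1334) and in most of the lists. The epithelial list was among them. In the oxygen-sensing list this was 1 call, and 13 of its 18 log2 fold changes lay above 0. Without the 10 genes, the adrenomedullin and NDRG lists held 0 lower calls, the mitophagy list 1 and the collagen list 5. Glucose metabolism had more calls in the higher direction under the reported scaling. P4HA2 and PLOD1, which were called lower, and PLOD2, which was not called, are in both the collagen list and the other targets. The lists describe these libraries by counts and medians, and no list was tested as a whole.

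Transcript composition differed among the genes called. GC content was 37.4% for BNIP3L, 39.7% for P4HA1, 54.9% for NDRG1 and 55.4% for ADM, against a median of 49.6% over the tested genes. With a smooth GC trend removed from each library, 4 of the 10 genes were again called lower and 0 higher, and they were the same genes.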

How the data were processed

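RNA sequencing of DLD1 cells was analysed, with 2 libraries of OE-WT and 2 of CTRL cells. Per the labels, RNA came from the cleared lysate of cycloheximide-washed cells, poly(A) RNA was selected and libraries were made with a strand-specific kit, whereas the study's methods describe removal of ribosomal RNA and 3 replicates. The deposited values are raw read counts per gene, 1 column per library with its 2 lanes joined. The authors aligned reads with HISAT2 to GRCh38. The study's methods name HTSeq for counting, and the submitters' processing notes name HISAT2 2.2.1, featureCounts 2.0.0 and DESeq2 1.34.0. The annotation release used for counting is not given in the sources used here.

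Of 58302 identifiers, 57532 were matched to GENCODE release 44 (GRCh38), the source of symbols, coordinates, GC content and canonical transcript lengths. The test was edgeR 4.0.16 (R 4.3.3): its filter on low counts (minimum count 10, by group), TMM factors, the quasi-likelihood test without a block, and Benjamini-Hochberg adjustment over 14133 genes, called at an adjusted p below 0.05. CPM used TMM-scaled library sizes over the tested genes. Fold changes are OE-WT over CTRL. The script was tested on simulated data with 200 of 14133 genes changed. It recovered 47% at a log2 fold change of 0.5 and 86% at 1, with 5.67% of calls false. In the simulation each gene had the spread of the fitted trend, and fewer genes changed than the 2976 called here. These rates check the script and are not those of this comparison. Alternatives were other size factors (RLE), library size alone, 2 other count filters, DESeq2 1.42.0, a block for the replicate number, omission of single libraries, and removal of a GC trend (lowess span 0.3). Promoter sequences are from RefSeq. Some items are not reported here.

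The 10 genes and the lists were chosen with earlier results of these data known. All 10 genes and every gene of the smaller pathway lists could be named; from the lists of glucose metabolism and of other HIF targets, the 5 largest increases and decreases among called genes with groups that do not overlap were named.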

Additional observations from a re-analysis of the deposited data

How the results depend on the processing

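ADM was called lower under all 11 alternatives, NDRG1 in 10, and P4HA1 and BNIP3L in 8 each; no fold change of these 4 genes changed sign. Over all genes, 2976 were called and 445 passed the study's thresholds; DESeq2 called 1377 and 288, and the second count was 738 when genes with 1 count or more entered and 216 when each library had to reach 10 counts. With DESeq2, 1 of the 10 genes was called lower (ADM). With library size alone, 2 genes of the wider HIF target lists were called higher in place of 6. Leaving out each library in turn gave 1923 to 2721 genes called, 427 to 563 at the study's thresholds, 2 to 5 of the 10 genes lower and 0 to 1 higher, and in the wider lists 11 to 13 lower and 3 to 4 higher, against 13 and 6. The log2 fold change of VEGFA, not called under any setting, ranged from -0.093 to 0.021 when single libraries were left out, the positive value being that without CTRL replicate 1, against -0.04 as reported. When a library is left out, the lone sample of its group is assumed to vary like the other group. The cause of these shifts was not tested.

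The replicate numbers are shared by both groups, but same-numbered libraries did not deviate together (correlation of deviations from the group means -0.0681). The reported test did not treat the numbers as pairs. With 2 libraries per group, the correlation cannot show whether same-numbered cultures were handled together. With the replicate block, 2658 genes were called, 4 of the 10 genes lower and 0 higher, and 13 lower and 4 higher in the wider lists; of the genes named, CITED2, NRP1, P4HB, ENO1, TPI1, KRT8 and KRT19 were no longer called.

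With 2 libraries in a group, the precision rests on the spread shared across genes (biological coefficient of variation 0.0513), and reads were fewest for BNIP3 and CA9.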

Other observations

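HIF1A-AS1, an antisense RNA at the start of HIF1A that was too low to be tested, had 3 and 6 reads in OE-WT and 11 and 8 in CTRL. The ratio of BNIP3L to BNIP3 reads was 31.6 and 28.9 in OE-WT and 24.4 and 21.8 in CTRL, and rests on 11 to 25 BNIP3 reads per library.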
